A study of Mus musculus with 6 samples.

Results

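The genes described here drive or feed energy-consuming cycles that can release heat in fat without Ucp1, the uncoupling protein of brown fat mitochondria. The 10 genes were chosen by name: Gatm, Gamt, Slc6a8, Ckb, Ckmt2 and Alpl of the creatine cycle, Atp2a2 of the calcium cycle, Pm20d1, and Gk and Aqp7 of the glycerolipid cycle. A probe set with 1 gene symbol was found for 9 of these 10, out of 22180 genes measured, and Gk (glycerol kinase) was not analysed here. Where a gene had several such probe sets, the one with the highest mean over all arrays was kept. Signals are on the log2 scale, so a difference of 1 unit is a 2-fold change.

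Total RNA came from intact inguinal mammary glands of mice aged 4 weeks on a C57BL/6J background, with 400 ng per array and 1 array per gland. The knockout group (Dermo1Cre/Mt1-mmp(fl/fl), n = 3) carried floxed Mt1-mmp, now named Mmp14, together with a Cre recombinase driven from Dermo1, now named Twist2, a locus of mesenchymal cells. The wild-type group (Mt1-mmp(+/+), n = 3) consisted of littermates with both Mmp14 copies intact, and no group with the Cre alone is named, so Cre and loss of Mmp14 cannot be told apart. Mmp14 encodes a membrane-anchored matrix metalloproteinase. The comparison asks what its removal from the stroma does to expression in the whole gland.

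Several cycles in adipocytes spend ATP without net work. In the creatine cycle, creatine made by Gatm and Gamt or taken up by Slc6a8 is phosphorylated by creatine kinases such as Ckb and Ckmt2, and Alpl, the tissue-nonspecific alkaline phosphatase, can hydrolyse phosphocreatine again. In the calcium cycle, the pump Atp2a2 (SERCA2) returns calcium to the endoplasmic reticulum after it leaks out. In the glycerolipid cycle, triglyceride is broken down and rebuilt: Aqp7 lets glycerol pass the membrane and Gk can return it to glycerol-3-phosphate. Pm20d1 is a secreted enzyme that joins fatty acids to amino acids, and its products can uncouple mitochondria. Beige and brown adipocytes can lie among the white adipocytes of the mammary fat pad.

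The arrays went with their labels. Mmp14 averaged 8.62 ± 0.11 in knockout glands and 10.88 ± 0.32 in wild-type glands (SD, n = 3 each), and it fell by 2.25 ± 0.17 (SE) log2 units (limma adjusted p = 0.000454). Whether its probes lie inside or outside the floxed exons is not known here. The defining markers of the gland were present, since the luminal keratin Krt8 averaged 5.93 in knockout glands, where it fell by 3.08 units, and the adipokine Adipoq averaged 9.46 in knockout and 9.18 in wild-type glands. Wild type 1 stood apart in skeletal muscle markers, with a mean over 16 genes of 5.14, against 2.89 to 3.41 on the other 5 arrays. In whole tissue, fewer cells of a type and less RNA per cell cannot be told apart.

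Of the 9 measured cycle genes, 2 rose in the knockout, 1 fell and 6 did not pass the test. Aqp7 and Pm20d1 rose, Alpl fell, and the creatine-making, creatine-uptake and creatine kinase genes and the calcium pump gene did not pass in either direction. Across all genes, 5.05% rose and 7.20% fell at a limma adjusted p under 0.05, and 12.2% passed in either direction. With 9 genes, 3 calls are a description of those genes and no test of the family. The median difference over the 9 genes was 0.06 log2 units, beside 0.03 over all 22180 genes. The knockout and wild-type arrays did not overlap for 3 of the 9 genes, the same 3 that were called, and for 32.7% of all genes. The knockout lay above in 2 of these, beside 17.2% of all genes, and below in 1, beside 15.4%.

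**Figure D1:**
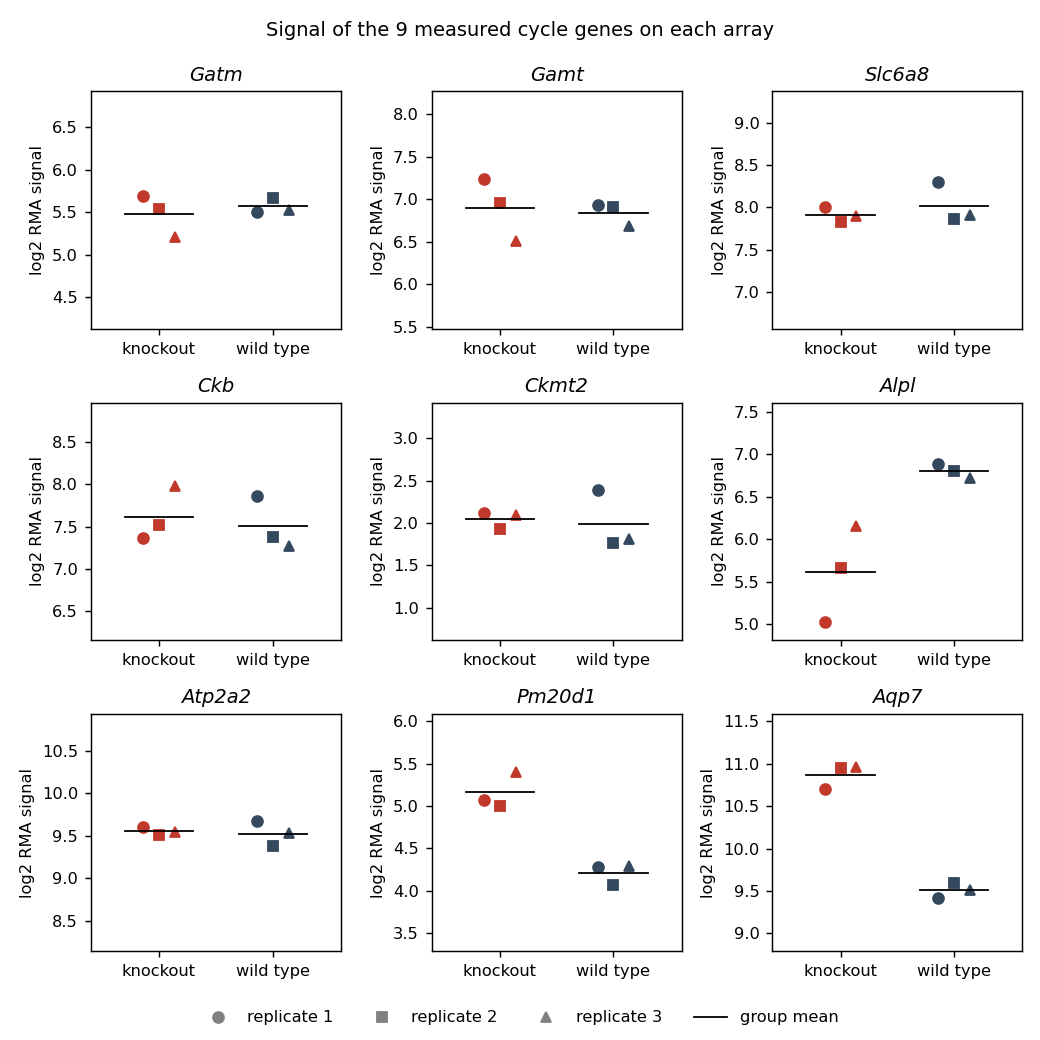
Log2 RMA signal of the 9 measured genes on each of the 3 knockout arrays (red, left) and 3 wild-type arrays (dark blue, right). Symbols mark the replicate number, bars are group means, and every panel spans the same number of log2 units. Aqp7 and Pm20d1 lie higher on all knockout arrays and Alpl lower, while the groups overlap for the other 6.

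Aqp7, the aquaglyceroporin through which adipocytes release glycerol, had the largest change of the 9 genes. Its signal was 10.70, 10.95 and 10.96 on the knockout arrays, against 9.42, 9.59 and 9.51 on the wild-type arrays. Every knockout array lay above every wild-type array, and the gap between the groups was wider than the spread inside either. The means were 10.87 ± 0.15 in the knockout and 9.51 ± 0.09 in wild type (SD, n = 3 each). The rise was 1.36 ± 0.13 log2 units (SE), or 2.57-fold, with a 95% interval of 1.07 to 1.65 (limma adjusted p = 0.000862). Permuting the group labels over the 6 arrays gave an exact p of 0.1 (two-sided), and no lower p is possible with 3 arrays in each group.

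Adipocyte markers were also higher on the knockout arrays, so the value is given against them too. The mean of 10 mature adipocyte markers was 11.19 to 11.30 on the knockout arrays and 10.93 to 10.97 on the wild-type arrays, a difference of 0.27. Of these 10 markers, 2 rose (20.0%, beside 5.05% of all genes), Plin1 and Lipe, and the other 8 did not pass. With each array centred on that mean, Aqp7 was higher by 1.09 ± 0.13 (limma adjusted p = 0.00112). The exact permutation p of that difference was 0.1 (two-sided). The mean of 10 thermogenic adipocyte markers was 7.79 to 8.33 on the knockout arrays and 5.69 to 7.14 on the wild-type arrays. Of these 10, 6 rose (60.0%, beside 5.05%), 0 fell and 4 did not pass, among them Elovl3 at -0.67 and Dio2 at -0.65. Minus this thermogenic mean, Aqp7 averaged 2.90 on the knockout arrays and 3.08 on the wild-type arrays, a difference of -0.18 (exact permutation p = 0.8, two-sided). Its wild-type values by that measure ran from 2.45 to 3.73, so this comparison cannot decide whether a difference remained.

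Pm20d1 rose as well. It read 5.08, 5.00 and 5.41 on the knockout arrays, against 4.29, 4.06 and 4.30 on the wild-type arrays. The groups did not overlap, and knockout 3 was the highest array. Group means were 5.16 ± 0.22 in the knockout and 4.22 ± 0.13 in wild type (SD, n = 3 each). The difference was 0.94 ± 0.15 log2 units (SE), or 1.93-fold, with a 95% interval of 0.61 to 1.28 (limma adjusted p = 0.00678). Centred on the mature adipocyte markers it was 0.67 ± 0.16 (limma adjusted p = 0.0223, exact permutation p = 0.1, two-sided). Minus the thermogenic marker mean it averaged -2.81 in the knockout and -2.22 in wild type, a difference of -0.60 (exact permutation p = 0.4, two-sided). Its wild-type values by that measure ran from -3.08 to -1.40, so this comparison cannot decide whether a difference remained. How far adipocyte number or type contributes to either rise was not tested.

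Alpl was the member that fell. Its signal was 5.03, 5.66 and 6.16 on the knockout arrays, against 6.89, 6.80 and 6.73 on the wild-type arrays. The wild-type arrays lay close together and the knockout arrays were spread widely below them, with knockout 1 the lowest. The means were 5.61 ± 0.57 in the knockout and 6.81 ± 0.08 in wild type (SD, n = 3 each). The difference was -1.19 ± 0.26 log2 units (SE), which left 43.8% of the wild-type level, with a 95% interval of -1.79 to -0.59 (limma adjusted p = 0.0233). The call was lost without knockout 2 or any wild-type array, at adjusted p-values of 0.0641 to 0.0844. A dimmer Alpl probe set, at 3.37, 2.96 and 3.43 on the knockout arrays and 3.30, 4.14 and 3.48 on the wild-type arrays, differed by -0.38 ± 0.24 and did not pass (limma adjusted p = 0.366).

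Several cell types of the gland with lower marker signal moved in the direction of Alpl. The mean of 9 luminal epithelial markers was 5.03 to 5.35 on the knockout arrays and 7.61 to 7.82 on the wild-type arrays, with 9 falls. The fibroblast mean over 9 markers was 10.12 to 10.31 in the knockout and 10.70 to 10.98 in wild type, with 4 falls. Macrophage markers averaged 8.28 to 8.42 in the knockout and 8.77 to 9.15 in wild type, with 4 falls among 7. These falls were 100%, 44.4% and 57.1% of the luminal, fibroblast and macrophage lists, beside 7.20% of all genes. Minus the luminal mean, Alpl was higher in the knockout by 1.38 (exact permutation p = 0.1, two-sided). Minus the fibroblast mean it differed by -0.52 and minus the macrophage mean by -0.54 (exact permutation p = 0.2 each, two-sided). Their part in the fall of Alpl was not tested.

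**Figure D2:**
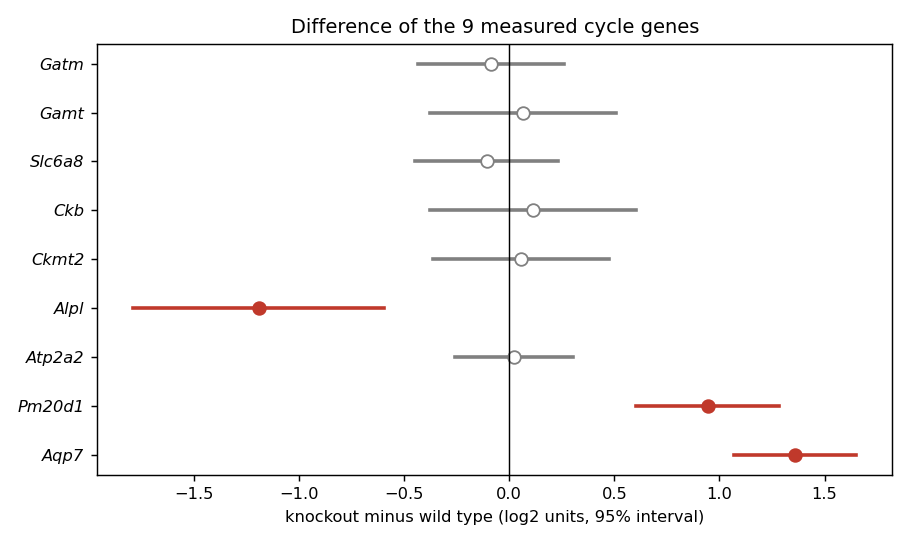
Difference between knockout and wild-type means of each measured gene in log2 units, with its 95% interval from limma. Filled red points passed at an adjusted p under 0.05 (Aqp7 and Pm20d1 higher, Alpl lower), and the intervals of the 6 open grey points all cross 0.

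Promoter windows are shown for the genes with the largest rise and the fall and, for contrast, for Ckb, which did not pass. They were taken from RefSeq on GRCm38.p6 and run from 250 bases before a gene's start to 50 bases after it. Of the 10 genes, 7 had a window in that table. Capitals mark AGGTCA, the hexamer of many nuclear receptor sites, and TATAAA, the TATA box, searched on both strands with no overlap between the matches.
Aqp7, chr4:41047913-41048212, minus strand: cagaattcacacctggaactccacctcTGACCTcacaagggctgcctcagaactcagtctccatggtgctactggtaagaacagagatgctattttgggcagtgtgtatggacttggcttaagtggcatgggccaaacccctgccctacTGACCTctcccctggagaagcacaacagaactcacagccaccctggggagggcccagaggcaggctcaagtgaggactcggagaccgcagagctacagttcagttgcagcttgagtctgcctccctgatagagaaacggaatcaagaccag
Alpl, chr4:137796335-137796634, minus strand: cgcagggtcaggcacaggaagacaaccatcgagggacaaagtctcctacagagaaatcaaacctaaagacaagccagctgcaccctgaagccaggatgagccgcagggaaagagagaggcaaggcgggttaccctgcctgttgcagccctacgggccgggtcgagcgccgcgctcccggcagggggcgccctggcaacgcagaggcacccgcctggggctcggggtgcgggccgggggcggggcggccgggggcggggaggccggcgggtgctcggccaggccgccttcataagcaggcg
Alpl, chr4:137766426-137766725, minus strand: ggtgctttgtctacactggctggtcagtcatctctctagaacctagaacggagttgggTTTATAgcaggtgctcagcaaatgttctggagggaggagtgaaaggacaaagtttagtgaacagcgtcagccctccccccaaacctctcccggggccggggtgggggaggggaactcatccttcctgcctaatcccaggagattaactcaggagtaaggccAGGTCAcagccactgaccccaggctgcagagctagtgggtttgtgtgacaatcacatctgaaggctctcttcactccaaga
Ckb, chr12:111672289-111672588, minus strand: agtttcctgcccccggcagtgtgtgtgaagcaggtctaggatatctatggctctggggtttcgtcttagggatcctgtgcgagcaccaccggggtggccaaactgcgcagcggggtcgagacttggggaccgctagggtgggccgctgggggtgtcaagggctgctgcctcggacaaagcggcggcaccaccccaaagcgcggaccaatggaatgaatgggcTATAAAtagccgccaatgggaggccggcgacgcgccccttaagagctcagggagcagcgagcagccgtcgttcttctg
The Aqp7 window held AGGTCA on its opposite strand, starting 223 and 101 bases before the start site. Another, overlapping Aqp7 window held 1 match, which is the same site as the one at 223 bases here. The Alpl windows belong to different start sites, of which 1 had an AGGTCA 31 bases before the start and a TATAAA on the opposite strand. In Ckb a TATAAA began 28 bases before the start. AGGTCA occurred in 16.3% of all 32851 windows and TATAAA in 13.6%. Of the called genes, Aqp7 and Alpl held AGGTCA and Pm20d1 had no window. Gatm, which did not pass the test, also held it, whereas Gamt, Ckb and Ckmt2 did not. These windows are too few to relate the match to the calls. The arrays do not tell which start site was in use.

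The remaining creatine genes did not pass. Gatm, which makes guanidinoacetate from arginine and glycine, read 5.70, 5.53 and 5.21 on the knockout arrays, against 5.50, 5.67 and 5.53 on the wild-type arrays. Gamt, which methylates guanidinoacetate to creatine, read 7.23, 6.96 and 6.51 on the knockout arrays, against 6.93, 6.90 and 6.68 on the wild-type arrays. For both genes knockout 1 was the highest and knockout 3 the lowest array, so the wild-type values lay inside the knockout range. Gatm differed by -0.09 ± 0.15 log2 units (95% interval -0.44 to 0.26, limma adjusted p = 0.761). Gamt differed by 0.06 ± 0.19 (95% interval -0.38 to 0.51, limma adjusted p = 0.871).

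Slc6a8, the plasma membrane creatine transporter, read 8.01, 7.83 and 7.90 on the knockout arrays, against 8.30, 7.86 and 7.91 on the wild-type arrays. Only wild type 1 stood above the rest. The difference was -0.11 ± 0.15 (95% interval -0.45 to 0.23, limma adjusted p = 0.701).

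Ckb is the cytosolic brain-type creatine kinase, reported in mouse thermogenic adipocytes to act in the creatine cycle. Its signal was 7.36, 7.52 and 7.98 on the knockout arrays, against 7.86, 7.38 and 7.27 on the wild-type arrays. Knockout 3 and wild type 1 were both high, and the groups overlapped across most of their range. The difference was 0.11 ± 0.21 (95% interval -0.38 to 0.60, limma adjusted p = 0.784). Ucp1 read 9.23, 9.62 and 11.07 on the knockout arrays. On the wild-type arrays it read 4.88, 8.80 and 7.12, with wild type 1 the lowest. Unlike in Ckb, every knockout array lay above every wild-type array, as for 17.2% of all genes. The Ucp1 difference of 3.04 ± 0.91, or 8.24-fold, did not pass (limma adjusted p = 0.0709). With 1 array fewer it ran from 2.02 without wild type 1 to 3.97 without wild type 2, where it passed (limma adjusted p = 0.0277). On all 6 arrays Ucp1 passed with an intensity trend and with median centring (limma adjusted p = 0.0286 and 0.0395).

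Ckmt2, the sarcomeric mitochondrial creatine kinase, read 2.11, 1.93 and 2.09 on the knockout arrays, against 2.39, 1.77 and 1.82 on the wild-type arrays. All of these lie under 2.71, the level below which 33.3% of gene means fall, so a change in Ckmt2 cannot be read here. The highest value was that of wild type 1, whose muscle marker mean was also the highest. The difference was 0.06 ± 0.18 (limma adjusted p = 0.881).

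Atp2a2, the SERCA2 calcium pump, was the steadiest of the 9 genes. Its signal was 9.60, 9.51 and 9.54 on the knockout arrays, against 9.67, 9.37 and 9.53 on the wild-type arrays. The knockout values lay inside the wild-type range. The difference was 0.02 ± 0.12 with a 95% interval of -0.26 to 0.30 (limma adjusted p = 0.922).

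Over the 6 genes that did not pass, differences ran from -0.11 to 0.11 log2 units and the widest interval bounds were -0.45 and 0.60. In linear terms these bounds are 0.732 and 1.52 times the wild-type level. These intervals leave room for changes of that size in either direction.

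Other genes of the same cycles were read from lists of genes that are not members. The glycerolipid cycle had most of the rises: of 30 genes, 13 rose, 1 fell and 16 did not pass, which is 43.3% higher and 3.33% lower beside 5.05% and 7.20% over all genes. The list median was 0.35 log2 units, beside 0.03 over all genes. At an unadjusted limma p under 0.05, 15 were higher and 4 lower. The list was chosen with earlier results of these data known, so these shares describe its genes and are no test of the cycle. Of the 30, 4 are also in the mature adipocyte list. Plin1 and Lipe are among these 4, so the 2 rises of the adipocyte list are also counted in the 13 here. With arrays centred on the adipocyte markers, 6 rose and 4 fell; 7 rose without knockout 2 and 8 without wild type 3.

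The largest rise among them was in Pck1, the phosphoenolpyruvate carboxykinase of glyceroneogenesis. It read 11.83, 12.21 and 12.19 on the knockout arrays, against 10.24, 11.09 and 11.01 on the wild-type arrays, a difference of 1.30 ± 0.24 (limma adjusted p = 0.0120). Aqp11, another aquaporin, had 6.60, 6.66 and 6.54 in the knockout and 5.81, 5.10 and 5.55 in wild type (+1.11 ± 0.18, limma adjusted p = 0.00856). Gpat4, a glycerol-3-phosphate acyltransferase, had 9.77, 9.94 and 9.87 in the knockout and 8.77, 8.90 and 8.77 in wild type (+1.05 ± 0.11, limma adjusted p = 0.00163). In each of these genes all knockout arrays lay above all wild-type arrays.

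Genes of both breakdown and rebuilding of triglyceride were among the rises, but not every gene of a step was higher. Abhd5, the activator of the adipocyte lipase Pnpla2, rose by 0.93 ± 0.15 and Lpin1, a phosphatidate phosphatase, by 0.77 ± 0.12. Mogat1, a monoacylglycerol acyltransferase, rose by 0.81 ± 0.16, a call lost without wild type 1 or 3 (limma adjusted p = 0.0644 and 0.0608). The other 7 rises, named after their values had been seen, were the acyltransferases Gpat3 and Dgat1, the glycerol-3-phosphate dehydrogenases Gpd1 and Gpd1l, the lipases Lipe and Mgll, and the droplet protein Plin1, at 0.41 to 0.69. Among these, Dgat1 kept its call without any 1 array, whereas each of the other 6 lost it without at least 1. Gpd1 and Gpat3 have 2 probe sets each. With the lowest-mean probe set they differed by 0.26 and 0.64 and did not pass (limma adjusted p = 0.441 and 0.0976). With the mean of its probe sets Gpd1 did not pass either (limma adjusted p = 0.0720). Pnpla3, a patatin-like phospholipase, fell by 0.98 ± 0.23, a call lost without knockout 2 or any wild-type array (limma adjusted p 0.0507 to 0.108). Lpin2, Gpam and Pck2 differed by -1.03, -0.37 and -0.31 and did not pass (limma adjusted p = 0.117, 0.0810 and 0.178). With Pnpla3 they are the 4 genes lower at an unadjusted limma p under 0.05. Gpd2 and Pnpla2 were higher at that p, by 0.42 and 0.40, and did not pass either. Gk5, a gene related to Gk, differed by 0.19 ± 0.13 (limma adjusted p = 0.426).

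The calcium list held calls in both directions. Of 25 further calcium genes, 2 rose, 1 fell and 22 did not pass, with a median of 0.00 log2 units. Beside these counts, 5.05% of all genes rose and 7.20% fell. Of the 25, 6 were higher and 3 lower at an unadjusted limma p under 0.05. Letm1, a mitochondrial inner membrane protein of ion exchange, rose by 0.60 ± 0.12 (limma adjusted p = 0.0143) and read 8.04, 8.20 and 8.28 in the knockout, against 7.54, 7.60 and 7.57 in wild type. That call was lost without knockout 2 (0.0579) or wild type 1 (0.0538). Ryr3, a calcium release channel, passed at +0.44 ± 0.11 (limma adjusted p = 0.0349), but both group means, 2.21 in the knockout and 1.77 in wild type, lie under 2.71, and the call was lost without any 1 array. Stim2, a sensor of calcium stores, fell by 0.42 ± 0.11 (limma adjusted p = 0.0476), a call lost without any 1 array as well. With arrays centred on their medians, 6 calcium genes rose and 0 fell, and with arrays centred on the adipocyte markers 0 rose and 4 fell.

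The muscle form of the pump, Atp2a1, showed how far 1 array can move a muscle gene. It read 2.41, 2.91 and 2.87 in the knockout and 6.80, 3.18 and 2.77 in wild type, and its difference of -1.52 ± 0.93 did not pass (limma adjusted p = 0.353). Sln, the sarcolipin peptide that uncouples the muscle pump, lay at 1.23 in the knockout and 1.11 in wild type, both under 2.71.

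**Figure D3:**
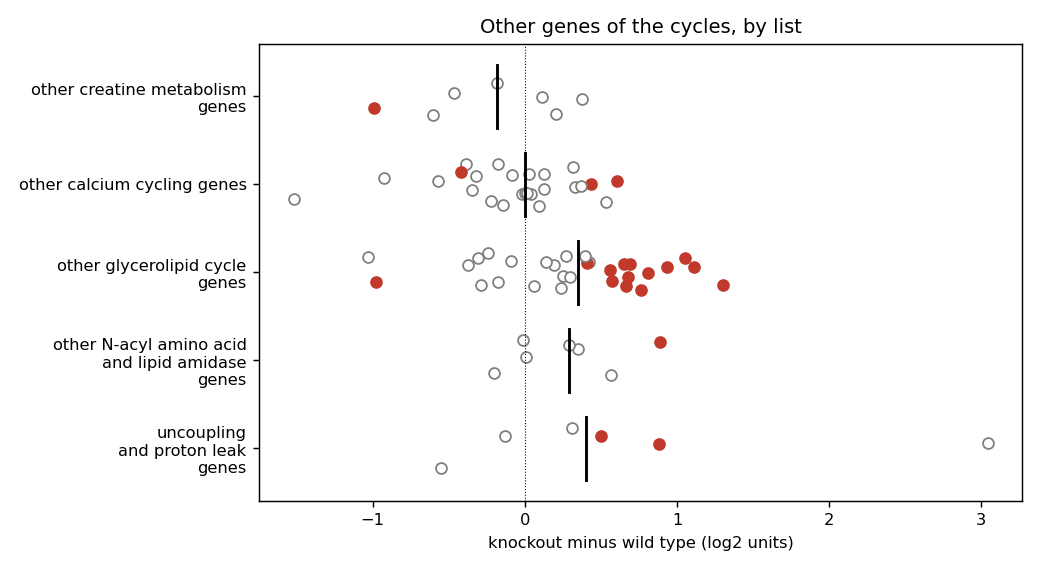
Knockout minus wild-type difference, in log2 units, of every measured gene in 5 lists of other cycle genes (points) with the list median (bar). Filled red points passed at an adjusted p under 0.05. The glycerolipid list has 13 red points to the right of 0 and 1 to the left, and the calcium list is centred on 0.

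Outside the members, the creatine list held 7 genes, of which 0 rose and 1 fell (14.3%), beside 5.05% and 7.20% over all genes. Vdac1, Vdac2 and Vdac3 differed by 0.21, 0.37 and 0.11. Ckm, Ckmt1, Slc16a9 and Slc16a12 differed by -0.60, -0.99, -0.46 and -0.18. The list median of -0.18 thus joins genes of both directions. Leaving out wild type 1 put the median at 0.10, and leaving out knockout 2 at -0.38. At an unadjusted limma p under 0.05, 1 of the 7 was higher and 2 were lower. The gene that fell was Ckmt1, the ubiquitous mitochondrial creatine kinase. It read 3.14, 3.30 and 3.19 on the knockout arrays, against 4.50, 3.96 and 4.14 on the wild-type arrays. No knockout array reached the wild-type range, and the fall was 0.99 ± 0.16 log2 units, or 1.99-fold (limma adjusted p = 0.00728). The call held without any 1 array, at adjusted p-values up to 0.0271. Luminal markers fell on the same arrays, as given above, and their part in this fall was not tested. Ckm, the muscle creatine kinase, read 3.44, 2.53 and 2.97 in the knockout and 4.98, 3.54 and 2.22 in wild type, with no pass (limma adjusted p = 0.589).

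Uncoupling and proton leak genes were read beside these cycles, with Ucp1 itself on the list. Of 6 measured, 2 rose (33.3%, beside 5.05% of all genes) and 0 fell by limma. At an unadjusted limma p under 0.05, 4 were higher, Ucp1 among them, and 1 was lower. Ucp3, an uncoupling protein relative found in muscle and brown fat, had 7.41, 7.41 and 7.64 in the knockout and 6.74, 6.73 and 6.36 in wild type (+0.88 ± 0.15, limma adjusted p = 0.00877). The ADP/ATP carrier Slc25a5 rose by 0.50 ± 0.12 (limma adjusted p = 0.0322), a call lost without any 1 array other than knockout 3 (0.0748 to 0.111). In the list of amidases and N-acyl amino acid enzymes, 1 of 7 genes rose (14.3%, beside 5.05% of all genes) and 0 fell by limma. At an unadjusted limma p under 0.05, 3 were higher and 0 lower. The gene that rose was the aminoacylase Acy3, at 8.91, 8.90 and 8.54 in the knockout and 7.81, 7.94 and 7.94 in wild type (+0.89 ± 0.14, limma adjusted p = 0.00684). Pm20d2, a relative of Pm20d1, differed by 0.35 ± 0.16 and did not pass (limma adjusted p = 0.213).

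**Figure D4:**
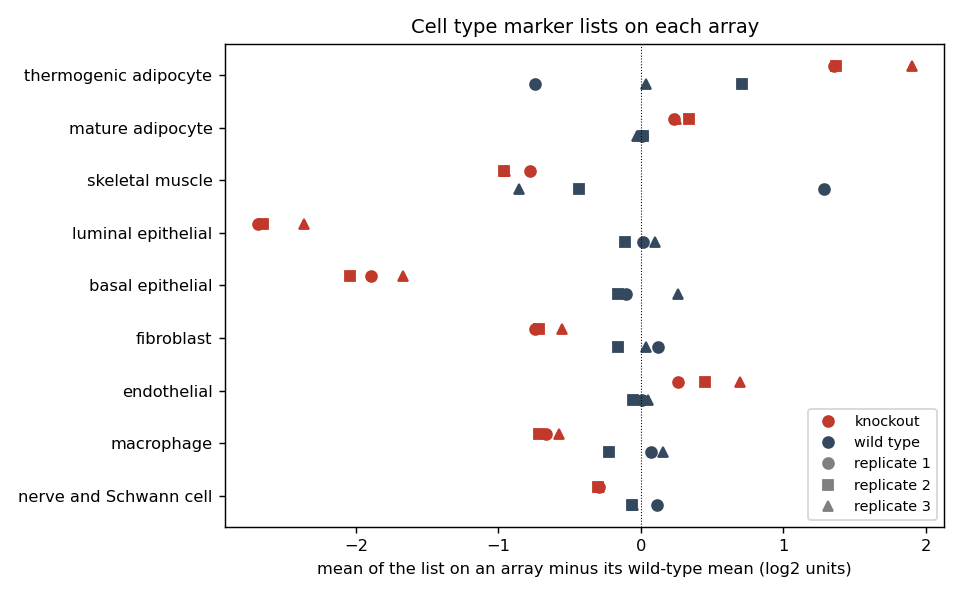
Mean signal of 9 cell type marker lists on each array, relative to the wild-type mean of the list (log2 units; red knockout, drawn above dark blue wild type; symbols mark the replicate number). The adipocyte lists lie to the right in the knockout, the epithelial, fibroblast and macrophage lists to the left, and wild type 1 stands apart in skeletal muscle.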

How the data were processed

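The deposited table holds log2 RMA signals of 41345 probe sets on 6 arrays. RMA and limma are named in the submitters' processing notes, without versions. Base 2 was inferred, since RMA works in log2 and the values span its usual range. For the chip definition and probe filters the submitters' notes give nothing. The platform annotation gives 1 symbol to 23521 probe sets and several to 1814, and 16010 are unnamed here. Lookup by Entrez identifier in RefSeq (GRCm38.p6) altered 0 symbols.

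Of the probe sets of a symbol, the one with the highest mean was kept, which left 22180 genes. Group differences were fitted with limma 3.58.1 in R 4.3.3 (lmFit, then eBayes without a trend) and adjusted by Benjamini-Hochberg over all genes, with a threshold of 0.05. Differences are knockout minus wild type, and ± after a difference is the moderated SE. Which gland came from which litter is not given, so p-values measure the spread between these arrays. The number of arrays limits the precision. Depth does not apply to arrays.

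The members and the gene lists were chosen with earlier results of these data known. Named were all members, list genes past the threshold (up to 6 per list and direction), and Mmp14, Twist2, Ucp1, Adipoq, Krt8, Acta1 and Pdgfra. Of 170 entries in 14 lists, 155 were measured. The closing section gives 18 alternatives. Steps were tested on simulated data, where 2.94%, 64.9% and 96.0% of changes of 0.5, 1 and 2 log2 units were recovered. Fewer genes were changed there than were called in these data, so the shares need not hold here.

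Of the check genes not described above, Twist2 differed by -0.47 ± 0.24 (limma adjusted p = 0.277), Acta1 by -0.94 ± 0.85 (limma adjusted p = 0.540, and 0.20 log2 units without wild type 1) and Pdgfra by -1.03 ± 0.13 (limma adjusted p = 0.00353). Basal epithelial markers showed 6 falls among 7 (85.7%) and endothelial markers 3 rises among 7 (42.9%). Nerve and Schwann cell markers showed 1 rise (20.0%) and 2 falls (40.0%) among 5. Over all genes 5.05% rose and 7.20% fell. Skeletal muscle markers showed 0 calls among 16 by limma, where 3 were lower at an unadjusted p under 0.05.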

Additional observations from a re-analysis of the deposited data

How the results depend on the processing

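Over 18 alternatives, Aqp7 and Pm20d1 kept their rises in each, at 1.09 to 1.55 and 0.67 to 1.13 log2 units, and the members that rose stayed at 2. The fall of Alpl kept its direction in each (-1.46 to -0.38). The count of members that fell was 0 with the lowest-mean probe set, where Alpl was -0.38, and 0 to 1 with 1 array fewer. The 6 uncalled members stayed uncalled, at -0.20 to 0.29 with 1 array fewer and -0.38 to 0.30 over all alternatives. Adipocyte centring turned Gamt, Ckb, Ckmt2 and Atp2a2 below 0, and median centring turned Gatm and Slc6a8 above 0. Centring on array medians moved the median difference of all genes to 0.22 and centring on the adipocyte markers moved it to -0.24, from 0.03. Neither centring changed the direction of Aqp7, Pm20d1 or Alpl, and the cause of the other shifts was not tested.

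Knockout and wild-type arrays share replicate numbers, but same-numbered deviations from the group means correlated at -0.05 to -0.03 and 0 of 6 arrays correlated best with its own number, so the numbers were not taken as pairs. With the replicate block, 689 genes rose, 1 calcium gene rose and 0 fell, and 0 glycerolipid genes fell, while Alpl, Pm20d1 and Aqp7 kept their calls (limma adjusted p = 0.0390, 0.0150 and 0.00495). The block ended the calls of Ryr3, Stim2, Pnpla3, Slc25a5 (0.0743), Gpd1 (0.0667), Gpd1l (0.117) and Lipe (0.0601), and Ucp1 passed under it (0.0415), so the uncoupling list kept its count with another gene.

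Counts that moved by over 1.5 times follow. In the creatine list, 1 gene rose with low genes left out, with either trend and at an adjusted p under 0.1, and 2 rose with median centring; 2 fell with adipocyte centring. In the calcium list, rises were 1 with repeated quantile normalization or an at least 1.5-fold change, 6 with median centring and 0 with adipocyte centring. Calcium falls were 2 with either trend or array weights, 3 at an adjusted p under 0.1, 4 with adipocyte centring, and 0 with median centring, the lowest-mean probe set or an at least 1.5-fold change. With 1 array fewer, 0 to 2 calcium genes rose and 0 to 1 fell. In the glycerolipid list, 6 rose with adipocyte centring and 7 to 10 with 1 array fewer. Glycerolipid falls were 2 with low genes left out, either trend, repeated quantile normalization, the mean or lowest-mean probe set, or an adjusted p under 0.1, 4 with adipocyte centring, and 0 to 1 with 1 array fewer. In the amidase list, 2 rose with either trend or median centring and 1 to 2 with 1 array fewer. In the uncoupling list, 4 rose with an intensity trend or median centring, and 1 rose with repeated quantile normalization, adipocyte centring or an at least 1.5-fold change, and 1 to 2 with 1 array fewer. Uncoupling falls were 1 with low genes left out, either trend, array weights, adipocyte centring or an adjusted p under 0.1, and 0 to 1 with 1 array fewer. Of all genes, 3155 rose with median centring, 420 rose and 4183 fell with adipocyte centring, 1857 rose at an adjusted p under 0.1, and 494 to 877 rose and 969 to 1427 fell with 1 array fewer. Low signal limits Ckmt2, Ryr3 and Sln, and Ckmt2 had no value with low genes left out.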

Other observations

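Knockout 3 was the highest of all 6 arrays for Ckb, Pm20d1 and Aqp7 and the lowest for Gatm and Gamt, at 5.21 and 6.51. It was also the highest array for Ucp1 (11.07) and for the means of the thermogenic (8.33) and endothelial (8.91) marker lists. Among the knockout arrays it had the highest Alpl signal, at 6.16. These are values of 1 array, with no test.

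Wild type 1 was the highest array for 4 of the 9 genes, namely Slc6a8, Ckmt2, Alpl and Atp2a2, and the lowest for Aqp7. It had the highest mean of skeletal muscle markers (5.14) and the lowest mean of thermogenic markers (5.69).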
